A study of Mus musculus with 12 samples.

Results

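Control esophagus was compared with control liver on 6 of the 12 arrays of the series, 3 of each organ, and every gene with a non-control probe on the array entered the comparison. The control mice (CTR) carried Col1a1+/+;Rosa26rtTA/+, that is the rtTA transactivator at the Rosa26 locus without the inducible transgene. The other 6 arrays were liver and esophagus of TG mice, Col1a1tetO-Nanog/+;Rosa26rtTA/+, in which doxycycline switches on Nanog; they share the fit and are used below only to repeat the organ comparison. All mice, controls included, were 8-month-old males of mixed 129Sv/C57BL6 background that had drunk doxycycline at 0.2 mg/ml in 7.5% sucrose for 48 hours, so the control organs are not those of untreated mice. Both organs came from the same 3 control animals.

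The mouse esophagus is lined by a stratified squamous epithelium whose basal cells divide and whose daughter cells cornify as they move to the surface. Its outer wall is, unlike that of most of the gut, largely striated muscle. The liver consists mainly of hepatocytes, which secrete most plasma proteins, detoxify drugs, make bile acids and urea and hold the body's glucose balance, beside sinusoidal endothelium, Kupffer cells and stellate cells. In whole organs such as these, fewer cells of a type and less RNA per cell cannot be told apart.

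Levels are log2 of the array signal minus the 75th percentile of the same array, so 0 is the level of a fairly bright probe, and levels of different genes are not compared. A gene was called when limma's adjusted p (Benjamini-Hochberg over 23365 genes) was under 0.05. Differences are esophagus minus liver in log2, with the standard error (SE) of the fit. Probes well above background made up 56.4% of the probes on the array of liver 3 and between 69.0% and 74.1% on the other 5 control arrays. The esophagi were extracted with a kit for fibrous tissue and the livers with Trizol followed by a column, which means that an effect of the organ and one of its extraction cannot be told apart. On all 12 arrays the probe for Nanog failed to rise well above background, so it does not check the genotype labels.

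Of 23365 genes tested, 14060 (60.2%) differed between the control organs, 6264 higher in esophagus (26.8%) and 7796 lower (33.4%). At least 8-fold differences were called for 2138 genes higher in esophagus (9.15%) and 1526 lower (6.53%). The median difference over all tested genes was -0.14. Over the 17534 genes above background on all 6 control arrays it was -0.36, with 3786 higher and 6952 lower. Esophagi correlated with each other at r between 0.974 and 0.979 over genes and livers at 0.965 to 0.976, while an esophagus and a liver correlated at 0.619 to 0.648. Genes are not independent replicates, and these values are a description. Of the tested genes, 1412 were above background in no control liver, of which 1129 were called, and 295 in no control esophagus, of which 294 were called. The 37 gene lists described below name 1125 genes, of which 1068 are on the array. The filter favours a difference for a member tested only because it is bright in 1 organ. Counts over members measured in both organs are therefore given for the main lists. For genes seen in 1 organ the fold is a lower bound: the bright organ's mean level is set against the mean, over the dim organ's arrays, of the higher of the probe's own level and the lowest level of any probe above background there.

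**Figure D1:**
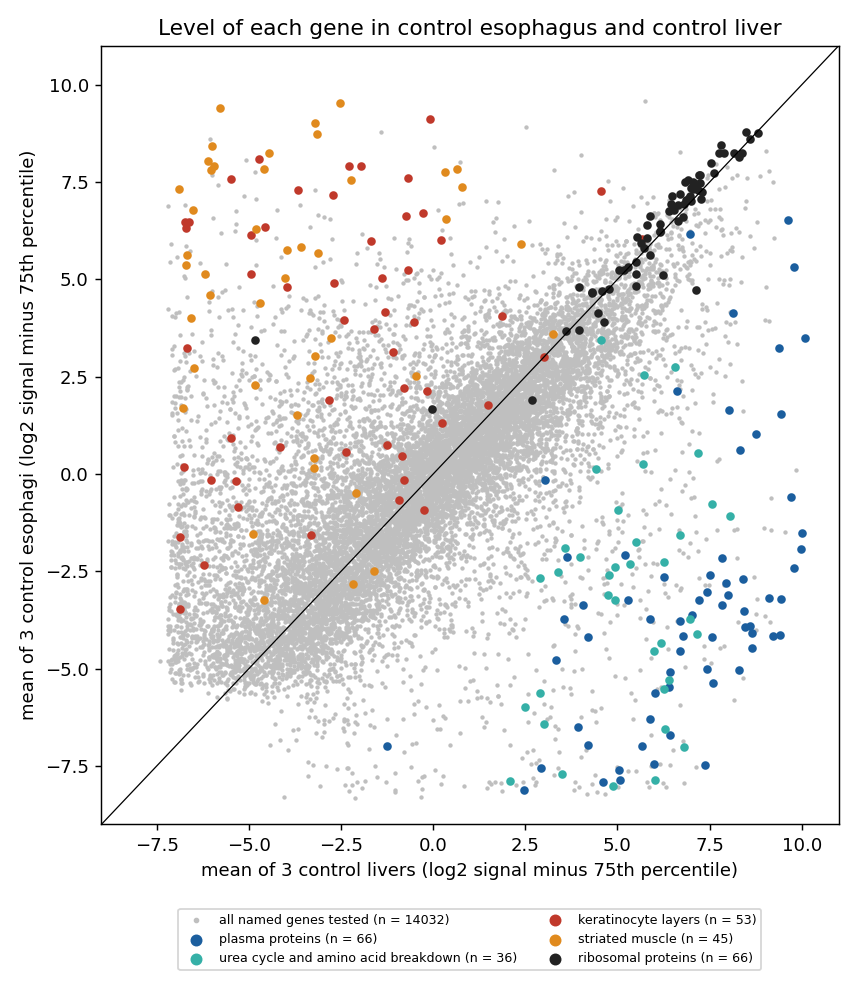
Mean level of each of 14032 named genes in the 3 control livers (horizontal axis, log2 signal minus the 75th percentile) and the 3 control esophagi (vertical axis, same unit); the line marks equal levels. Plasma protein and urea cycle genes lie below the line, most keratinocyte and striated muscle genes above it, and most ribosomal protein genes along it.

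The organ difference was repeated in the TG mice, where 14605 genes were called (61.1%). Of the 14060 genes called in controls, 13919 were tested in TG mice, 13803 had the same direction there, 12126 were also called in that direction and 0 were called in the other. These are other animals, but the fit shares its spread estimate between both genotypes. On each of the 2 slides that held both control organs, 99.8% and 99.9% of the 14060 genes had the direction of the whole comparison, which is nearly fixed by the choice of genes, since they were called on these same arrays. With the slide as a fixed block in the fit, 12811 genes were called.

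Genes of the squamous epithelium were higher in esophagus. Of 16 tested basal keratinocyte genes 13 were higher and 0 lower, with a median difference of 4.53, and of 37 tested genes of the suprabasal and cornified layers 34 were higher and 0 lower, with a median of 6.39. Among the members measured on all 6 control arrays, 8 of 11 and 19 of 22 were higher. Krt5, a keratin of the basal layer, was at 7.54, 8.00 and 8.21 in the esophagi and at -1.28, -2.97 and -1.65 in the livers. Every esophagus lay far above every liver, a 945-fold difference (9.88 ± 0.49, adjusted p = 6.82e-08). Its basal partner Krt14 differed by 6.42 ± 0.21, and Krt13, a keratin of the suprabasal cells, by 7.68 ± 0.31 (13.12 for another tested probe). Krt4, the partner of Krt13, differed by 12.84 ± 0.69, with 2 of 3 livers above background, and Krt15, another basal keratin, by 13.06 ± 0.60, with 1 of 3.

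Cornified envelope genes showed some of the largest differences. Lor, which encodes the envelope protein loricrin, was at 8.97, 9.09 and 9.30 in the esophagi and at -0.52, 0.25 and 0.01 in the livers. The organs did not overlap (9.21 ± 0.30, 591-fold, adjusted p = 3.99e-09). Sbsn, a secreted protein of suprabasal cells, differed by 10.20 ± 0.22 (1176-fold). Lypd3, a surface protein of suprabasal keratinocytes, differed by 9.90 ± 0.23 (958-fold). Lce1a1 (9.76 ± 0.49) and Lce3f (at least 11356-fold, mean 8.61 in esophagus against -6.06 in liver) belong to the late cornified envelope family, whose members are near-identical, so their probes may read several of them. Krtdap, a secreted protein of differentiating keratinocytes, was at least 2846-fold higher (mean 6.49 against -6.63). Slpi, a protease inhibitor of mucosal surfaces, differed by 10.19 ± 0.73, and Cysrt1 by 9.36 ± 0.39. For Slpi liver 1 at 0.54 stood above the other livers at -2.21 and -2.56.

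Of 19 tested junction genes 13 were higher in esophagus and 3 lower, and of the 13 measured on all 6 arrays 7 were higher and 3 lower. Pkp1, a desmosome plaque protein, was at 6.56, 6.66 and 7.13 in the esophagi and at -4.67, -3.53 and -4.52 in the livers, of which 1 of 3 was above background (11.02 ± 0.35, adjusted p = 3.32e-09). The lower ones were Pkp2 and Dsg2, the plaque protein and cadherin of desmosomes in simple epithelia and heart, at -2.99 ± 0.28 and -2.98 ± 0.31, and Cldn1, a tight junction strand protein, at -1.76 ± 0.64 (adjusted p = 0.0356). The call of Cldn1 was lost in 7 of 17 alternative fits. Among these were the fits with the animal as a replicate block (adjusted p = 0.0551), without liver 1, where the difference was -1.02 (adjusted p = 0.117), and without any 1 of the esophagi.

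Transcription factors split between the organs. Of 28 tested factors of layered epithelium 23 were higher in esophagus and 1 lower, with a median of 5.70. Of the 10 measured on all 6 arrays 6 were higher and 1 lower, with a median of 1.89. Trp63, which encodes p63, the master factor of stratified epithelium, was at 2.84, 3.27 and 3.59 in the esophagi and above background in no liver, at least 298-fold higher (means 3.23 and -6.68). Another tested Trp63 probe differed by 3.35. Sox2, needed for esophageal fate in the foregut, was at least 101-fold higher (means 1.67 and -6.70). Pitx1 was at least 1907-fold higher (means 5.91 and -7.11) and Tbx1 at least 831-fold (means 4.71 and -5.99). Klf5, a factor of proliferating basal cells, differed by 8.04 ± 0.77, with 1 of 3 livers above background. Foxq1 was the lower one, at -1.27 ± 0.45 (adjusted p = 0.0329), and its organ difference in TG mice was 0.09. That call was lost in 5 of 17 alternative fits. Among these were the fits without liver 2 (-0.81, adjusted p = 0.124), without esophagus 1 (-1.25, adjusted p = 0.0751) and without esophagus 3 (-0.93, adjusted p = 0.125).

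In RefSeq's promoter table (build GRCm38.p6), 24 motifs were searched on both strands of the 250 bases before each start, and those shown were chosen after their shares were seen. The AP-1 motif TGAGTCA lay in 23.3% of the 43 windows of 35 keratinocyte genes and in 4.46% of all 32851 windows. TATAAA lay in 32.6% and 12.4%. In windows of genes at least 8-fold higher in esophagus the shares were 6.57% for TGAGTCA and 12.3% for TATAAA. In striated muscle windows they were 8.7% and 17.4%. The 120 bases before the start are shown for the keratinocyte genes with the largest differences that hold TGAGTCA there, with the motif in capitals. Genes on some chromosomes were left out of this choice, here and for the motifs below. Krtdap is at chr7:30787785-30787904 (+), Dmkn, encoding a secreted keratinocyte protein, at chr7:30763636-30763755 (+), and Lor at chr3:92083143-92083262 (-). A match is a description of these letters and not a site.
Krtdap: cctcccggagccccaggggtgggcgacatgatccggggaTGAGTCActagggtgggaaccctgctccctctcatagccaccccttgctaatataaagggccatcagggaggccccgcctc
Dmkn: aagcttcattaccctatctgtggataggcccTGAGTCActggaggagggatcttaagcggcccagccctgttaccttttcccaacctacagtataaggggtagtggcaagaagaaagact
Lor: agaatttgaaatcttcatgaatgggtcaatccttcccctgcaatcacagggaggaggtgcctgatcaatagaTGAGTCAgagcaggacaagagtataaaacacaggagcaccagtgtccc

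Striated muscle genes were higher in esophagus for 40 of 45 tested members and lower for 0, with a median of 9.09, and for 16 of the 20 measured on all 6 arrays. Tnni2, the inhibitory troponin of fast fibres, was at 8.87, 9.04 and 9.13 in the esophagi and at -2.64, -3.23 and -3.72 in the livers. This was the largest difference toward esophagus among named genes above background on all 6 arrays (12.21 ± 0.31, 4737-fold, adjusted p = 7.69e-10). Tnnc2, the fast troponin that binds calcium, differed by 12.07 ± 0.46 (4312-fold), and Tcap, which caps titin at the Z-disc, by 11.89 ± 0.50 (3794-fold). Mylpf, a fast myosin light chain, differed by 9.78 ± 0.25, Pdlim3, a Z-disc protein, by 9.59 ± 0.32 and Myoz1, which binds calcineurin there, by 8.80 ± 0.40. Des, the intermediate filament of muscle, differed by 9.42 ± 0.41. Myh8, a myosin heavy chain of developing fibres, differed by 15.20 ± 1.13 with 1 of 3 livers above background, and Myh4, of the fastest fibres, by 12.43 ± 0.63, also with 1 of 3; another tested Myh8 probe differed by 6.73. The heavy chains are near-identical, so which of them the probes read is uncertain.

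The promoter motif CAGCTG, an E-box of the kind that myogenic factors bind, lay in 39.1% of the 46 windows of 37 striated muscle genes and in 13% of all windows. It also lay in 25.6% of the keratinocyte windows, and in 16.2% of the windows of genes at least 8-fold higher in esophagus. Shown in the same way are the muscle genes with the largest differences that hold it: Myh4 at chr11:67237692-67237811 (+), Mybpc1, a myosin-binding protein, at chr10:88605153-88605272 (-), and Mylpf at chr7:127211488-127211607 (+).
Myh4: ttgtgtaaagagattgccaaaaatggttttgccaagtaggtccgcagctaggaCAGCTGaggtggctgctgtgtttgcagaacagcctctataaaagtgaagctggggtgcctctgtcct
Mybpc1: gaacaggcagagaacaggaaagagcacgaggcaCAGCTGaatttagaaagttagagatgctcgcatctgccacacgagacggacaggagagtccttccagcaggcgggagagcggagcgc
Mylpf: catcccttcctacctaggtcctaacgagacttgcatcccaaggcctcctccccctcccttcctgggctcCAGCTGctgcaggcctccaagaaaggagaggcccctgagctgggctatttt

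Smooth muscle genes were higher for 12 of 13 tested members and lower for 1, Cald1, the thin filament protein caldesmon that other cells also make (-1.61 ± 0.39). Myh11, the smooth muscle myosin, was at 5.04, 4.62 and 4.87 in the esophagi and at -1.81, -1.78 and -1.53 in the livers (6.55 ± 0.25, 93.9-fold, adjusted p = 1.11e-08). The organs were well apart. Acta2, smooth muscle actin, differed by 5.59 ± 0.21 and Actg2, the enteric smooth muscle actin, by 3.996 ± 0.25.

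Markers of tissues that lie next to the esophagus were also found in its arrays, and they differed between mice. Of 15 tested heart genes 13 were higher in esophagus, with a median difference of 6.76, 4.20 and 5.77 in mice 1, 2 and 3, and of 12 tested airway and alveolar genes 8 were higher and 1 lower, with medians of 5.53, 2.46 and 3.80. Of those measured on all 6 arrays, 6 of 6 heart genes were higher, as were 3 of 6 airway genes, with 1 lower. In TG mice 10 of the 13 called heart genes and 6 of the 9 called airway genes had the same direction. Over all called genes tested in TG mice this was 13803 of 13919. The heart list shares Myl2 and Myl3 with the striated muscle list, and Myl3 had the largest difference of the heart list (14.14, but 4.21 for another tested probe). The heart count and median are thus not of heart markers alone. Nppa, the atrial natriuretic peptide, was at 5.51, 0.58 and 4.07 in the esophagi and at -2.77, -2.80 and -3.001 in the livers. Myl7, the atrial myosin light chain, was at 6.17, 2.95 and 4.48, and Scgb1a1, a secretoglobin of airway club cells, at 5.90, 2.99 and 2.85. Esophagus 1 was the highest for all 3 genes. Their part in the muscle and epithelial differences was not tested; without esophagus 1 the median of the heart list was 5.002 and that of the airway list 2.83.

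Connective tissue, nerve and fat genes were higher in esophagus. The fibroblast and matrix list had 30 of 33 tested members higher and 2 lower (median 4.90), nerve and glia 14 of 16 higher and 0 lower (3.13), and fat 12 of 16 higher and 2 lower (4.64). On all 6 arrays these were 23 of 26 measured members higher and 2 lower, 5 of 6 and 0, and 5 of 9 and 2. The fat list includes Cox8b, a muscle subunit of cytochrome oxidase, so its count is not of fat markers alone. Dpt, a dermatopontin of collagen matrix, was at 3.97, 4.25 and 4.44 in the esophagi and at -2.26, -2.48 and -2.53 in the livers (6.64 ± 0.24, adjusted p = 7.78e-09). The 2 organs lay more than 6 log2 units apart in every mouse. Col3a1, a fibrillar collagen, differed by 4.84 ± 0.26, but another of its tested probes by 0.72. Fn1, fibronectin, which hepatocytes secrete into plasma, was lower at -2.52 ± 0.25, as was Dpp4, a surface peptidase (-2.62 ± 0.27). The lower genes of the fat list were Elovl3, a fatty acid elongase (-7.14 ± 1.29), and Pparg, a lipid receptor of fat cells (-1.36 ± 0.40, and -1.13 with an adjusted p of 0.0533 without liver 2). Ucp1, the uncoupling protein of brown fat, was at 1.504, 3.34 and 3.27 in the esophagi and at least 207-fold higher there (means 2.71 and -7.01). S100b, a glial calcium-binding protein, differed by 5.63 ± 0.78, with 2 of 3 livers above background.

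All 66 tested plasma protein genes were lower in esophagus, with a median of -10.9, and so were all 49 of them measured on all 6 arrays. Alb, serum albumin, was at 9.75, 10.09 and 10.08 in the livers and at -3.26, -1.22 and -1.32 in the esophagi. The organs did not overlap, and esophagus 1 had the lowest level (-11.91 ± 0.48, 3838-fold, adjusted p = 1.78e-08). Apoa2, an apolipoprotein of high-density lipoprotein, differed by -13.54 ± 0.50 and Apoa1, its main protein, by -12.96 ± 0.39. Fgg and Fgb, chains of fibrinogen, differed by -13.38 ± 0.34 and -12.66 ± 0.55. Serpinc1, antithrombin, differed by -13.13 ± 0.27 (-9.01 for another tested probe). Apoh differed by -12.75 ± 0.27, Apoc3 by -12.45 ± 0.40, Hpx, the heme carrier hemopexin, by -12.41 ± 0.41 and Mug1, a protease inhibitor, by -12.51 ± 0.31. Outside the list, Mup5, a major urinary protein of a near-identical family, differed by -13.66 ± 0.30, and its probe may read other members. Pzp, a protease-binding plasma protein, was at least 11224-fold higher in liver (means 7.38 and -7.48).

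The motif GTTAAT lay in 25.5% of the 55 windows of 49 plasma protein genes and in 6.43% of all windows. It also lay in 11% of the windows of genes at least 8-fold lower in esophagus, and in 4.65% of the keratinocyte windows. Shown as above are the plasma protein genes with the largest differences that hold it: Pzp at chr6:128526721-128526840 (-), C8a, a complement component, at chr4:104876399-104876518 (-), and Fga, a fibrinogen chain, at chr3:83026033-83026152 (+), where it reads on the other strand.
Pzp: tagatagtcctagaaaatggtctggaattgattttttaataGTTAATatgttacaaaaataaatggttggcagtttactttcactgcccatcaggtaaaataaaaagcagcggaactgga
C8a: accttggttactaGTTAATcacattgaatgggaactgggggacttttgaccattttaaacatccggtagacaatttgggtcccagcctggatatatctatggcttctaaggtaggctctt
Fga: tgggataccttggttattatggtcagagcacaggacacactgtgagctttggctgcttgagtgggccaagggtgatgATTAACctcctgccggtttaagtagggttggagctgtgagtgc

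The other hepatocyte lists went the same way. Of 60 tested cytochrome P450 and phase 2 genes 49 were lower in esophagus and 5 higher (median -6.58), and all 31 transporter genes (-7.39) and all 36 urea cycle and amino acid genes (-8.31) were lower. On all 6 arrays, 34 of 42 measured P450 and phase 2 genes were lower and 2 higher, with a median of -4.43, and all 25 measured members were lower in either of the other lists. Otc, a urea cycle enzyme, was at 5.82, 6.18 and 6.06 in the livers and above background in no esophagus. By this probe it was at least 4361-fold higher in liver (means 6.02 and -7.86), and another tested probe differed by -11.68. Abcb11, the bile salt export pump, was at 7.46, 7.49 and 7.28 in the livers and at -1.94, -1.65 and -1.46 in the esophagi (-9.09 ± 0.22, adjusted p = 5.49e-10). Cyp3a11, a drug-metabolizing P450, differed by -10.34 ± 0.39. Cyp7a1, the rate-limiting enzyme of bile acid synthesis, was at least 604-fold higher in liver by its brightest probe (means 3.17 and -6.25). Another tested Cyp7a1 probe differed by -5.50. Among other enzymes, Ces3b, Akr1c6, Rdh7 and Fbp1 differed by -12.92 ± 0.36, -12.77 ± 0.38, -12.41 ± 0.49 and -12.36 ± 0.31.

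Some members of these families were higher in esophagus. Cyp2s1, a P450 of epithelia, was at 5.98, 6.496 and 6.55 in the esophagi and at -3.35, -2.95 and -3.75 in the livers (9.69 ± 0.35, 826-fold, adjusted p = 8.49e-09). No liver came near an esophagus. Cyp1b1, a P450 of many non-liver tissues, differed by 4.05 ± 0.43, with 1 of 3 livers above background. Adh7, the alcohol dehydrogenase of the upper gut, differed by 5.61 ± 0.27, while its liver relative Adh1 differed by -4.05 ± 0.35. Aldh3a1, an aldehyde dehydrogenase of surface epithelia, was at least 141-fold higher in esophagus (means 2.15 and -6.68). Of 44 tested lipid and ketone genes 31 were lower and 0 higher (median -2.62). Scd1, a fatty acid desaturase, differed by -4.20 ± 0.77.

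Of 26 tested hepatocyte factors 20 were lower in esophagus and 2 higher (median -3.85), and of the 23 measured on all 6 arrays 17 and 2. Nr1h4, the bile acid receptor, was at 4.56, 4.96 and 4.85 in the livers and at -4.05, -3.85 and -3.50 in the esophagi (-8.59 ± 0.22, 386-fold, adjusted p = 8.46e-10). Onecut1 was at least 395-fold higher in liver (means 2.55 and -7.15). Foxa2, a forkhead factor of endoderm, differed by -7.19 ± 1.28 and Hnf4a by -2.08 ± 0.25, while its other 2 tested probes differed by -11.79 and -7.04. Foxa2 was at -1.01, -4.31 and -3.47 in the esophagi, highest in esophagus 1. The higher ones were Tbx3 (1.16 ± 0.24) and Hnf4g, a relative of Hnf4a (1.83 ± 0.66, adjusted p = 0.0356). The call of Hnf4g was lost in 6 of 17 alternative fits. Among these were the fits without any 1 control array other than liver 1 (adjusted p 0.0742 to 0.116).

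Markers of non-hepatocyte liver cells were mostly lower in esophagus for sinusoidal endothelium and mixed for other types. Of 14 tested sinusoidal endothelial genes 11 were lower in esophagus and 1 higher (median -2.36), while of 14 general endothelial genes 5 were higher and 3 lower (0.23), with 3 higher without liver 2 or without esophagus 3. Clec4f, the lectin that marks Kupffer cells, was at 3.81, 2.73 and 3.62 in the livers and at least 704-fold higher there (means 3.39 and -7.54). Clec4g, a lectin of sinusoidal endothelium, differed by -6.71 ± 0.39. Lyve1, which marks both sinusoidal and lymphatic endothelium, was the one higher in esophagus, at 2.98 ± 0.64. Among 18 macrophage and Kupffer genes 6 were lower, among them Vsig4, a complement receptor of Kupffer cells (-4.21 ± 0.59), and Cd5l, which macrophages secrete (-7.51 ± 1.06). The 1 higher was Lyz2, a lysozyme of myeloid cells (1.60 ± 0.62, adjusted p = 0.0467). The call of Lyz2 was lost in 7 of 17 alternative fits, among them those without any 1 of the 6 control arrays (adjusted p 0.0543 to 0.162). Of 6 tested mast cell genes 4 were higher and 0 lower (1.85), such as Cma1, a mast cell chymase (2.78 ± 0.45), but of the 4 measured on all 6 arrays 2 were higher, with a median of 0.25. T cell genes had 1 of 10 tested members higher and 3 lower, and cholangiocyte genes 3 of 9 higher and 2 lower. Over all tested genes 26.8% were higher and 33.4% lower. The counts of lower macrophage and T cell genes and of higher cholangiocyte genes lie near these shares. Stellate cell genes were 3 of 11 higher, Des among them, and 6 lower, such as Lrat, which stores vitamin A as retinyl ester (-3.95 ± 0.22). There were 1 of 4 red blood cell genes each way and, among 10 stomach, gland and thyroid genes, 1 higher and 4 lower.

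**Figure D2:**
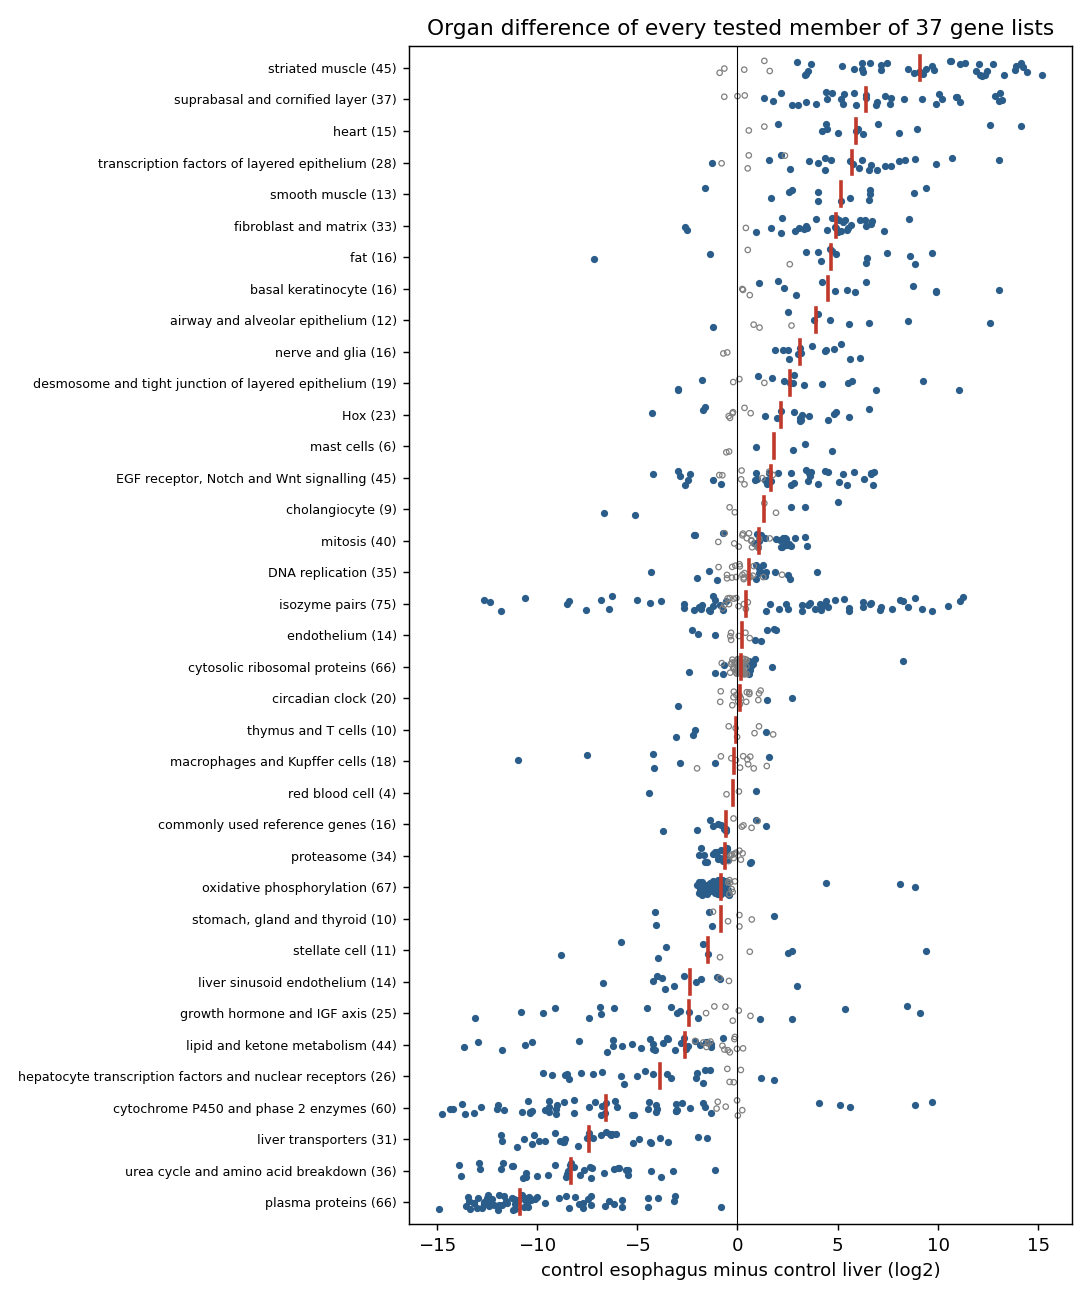
Organ difference (esophagus minus liver, log2) of every tested member of 37 gene lists, with the number tested in brackets; filled points passed the test, open points did not, and the bar is the list's median. Medians run from -10.9 for plasma proteins to 9.09 for striated muscle.

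Enzymes with tissue-specific isoforms differed in which isoform was high. Of 75 tested isozyme genes 36 were higher in esophagus and 28 lower, with a median of 0.42, but of the 60 measured on all 6 arrays 22 were higher and 27 lower, with a median of -0.46. Hk2, the hexokinase of muscle, which traps glucose in the cell, was at 5.53, 5.49 and 5.99 in the esophagi and -1.05, -2.11 and -1.21 in the livers (7.13 ± 0.30, adjusted p = 2.22e-08). The organs did not overlap. Muscle phosphorylase Pygm, which releases glucose from glycogen, was at least 680-fold higher in esophagus (means 4.42 and -6.09), and liver phosphorylase Pygl differed by -4.35 ± 0.47. Glycogen synthase showed Gys2 at -7.54 ± 0.68 and Gys1 at 5.55 ± 0.40, the latter with 2 of 3 livers above background, and pyruvate kinase Pklr at -5.03 ± 0.65 and Pkm at 5.54 ± 0.29. Of the aldolases, which split fructose bisphosphate, Aldoa differed by 3.85 ± 0.20, while Aldoc differed by -0.39 ± 0.24 and was not called (adjusted p = 0.193). Fructose bisphosphatase, of gluconeogenesis, showed Fbp1 at -12.36 ± 0.31 and Fbp2, its muscle form, at 6.63 ± 0.59, with 1 of 3 livers above background. The muscle enolase Eno3 was at 7.70, 7.81 and 8.00 in the esophagi and at 0.46, 0.79 and 0.73 in the livers (7.17 ± 0.18, adjusted p = 6.59e-10), again with no overlap. Of the fatty acid binding proteins, Fabp3 of muscle differed by 6.65 ± 0.26, Fabp4 of fat by 4.18 ± 0.45 and Fabp1 of liver by -10.61 ± 0.83. The carnitine transferases that admit fatty acids to mitochondria split into Cpt1b at 4.36 ± 0.36 and Cpt1a at -2.64 ± 0.22. Slc2a4, the insulin-regulated glucose transporter, differed by 6.26 ± 1.37, with livers spread over -4.25, -0.18 and 1.44. Mat1a, the liver enzyme that makes S-adenosylmethionine, differed by -11.78 ± 0.32, with 2 of 3 esophagi above background. Cox6a2, Cox7a1 and Cox8b, the muscle subunits of cytochrome oxidase, were higher by 8.11 ± 0.32, 4.43 ± 0.21 and 8.85 ± 0.35 (2 of 3 livers above background for Cox8b), while their widely expressed partners Cox6a1, Cox7a2 and Cox8a differed by -1.23 ± 0.16, -1.92 ± 0.26 and -1.43 ± 0.18. After quantile normalization Cox6a1 was at -0.34 and not called (adjusted p = 0.0534), and its call was lost in 3 of 17 alternative fits, this one included.

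**Figure D3:**
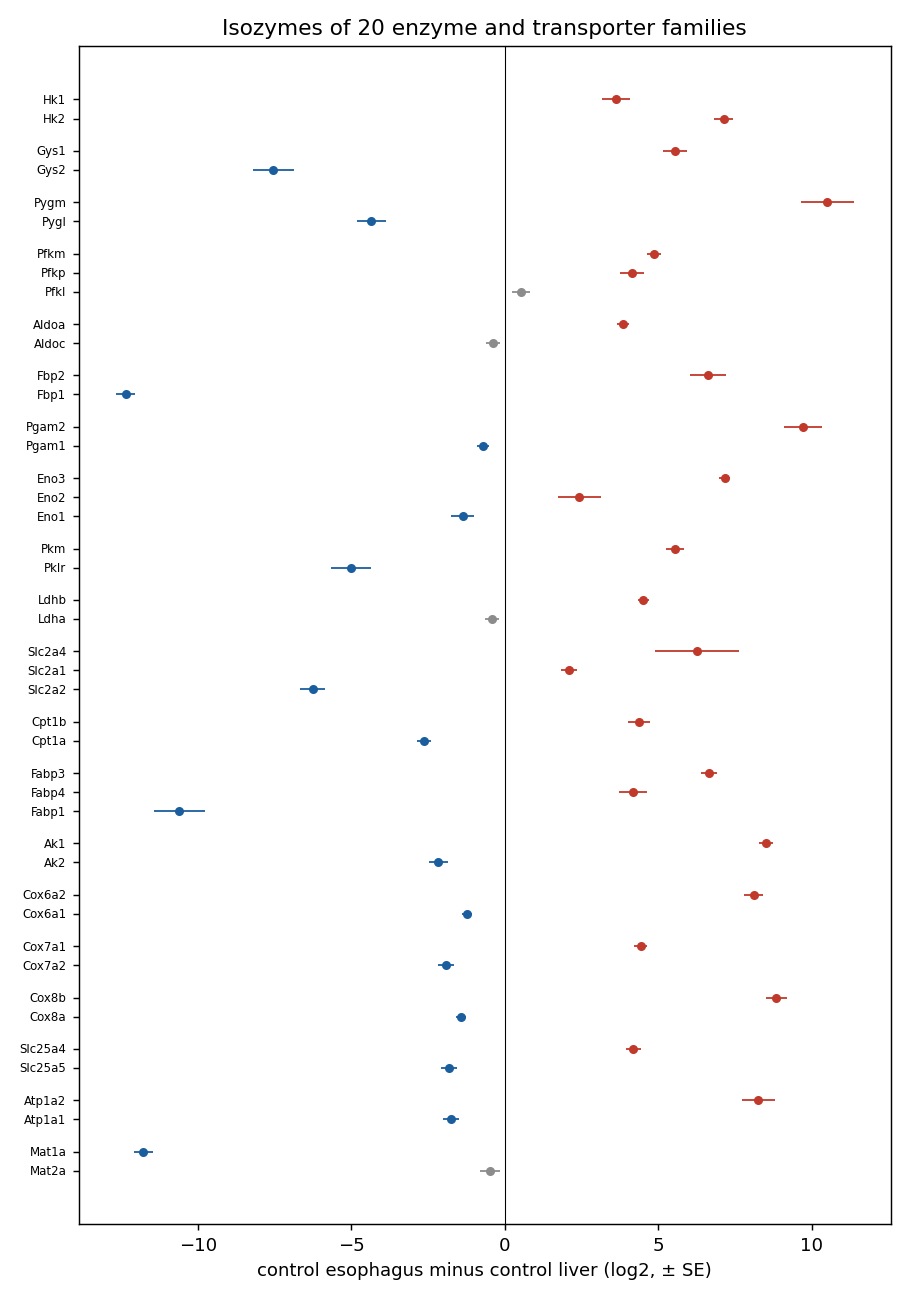
Organ difference (esophagus minus liver, log2) with its SE for the isozymes of 20 enzyme and transporter families, red where called higher in esophagus, blue where called lower and grey where not called. Gys2 and Gys1 lie at -7.54 and 5.55, and Pklr and Pkm at -5.03 and 5.54. For Hk1, at 3.62, the other tested probes of the gene differed by 3.75, 5.25 and -0.65.

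Growth signalling genes were higher in esophagus more often than lower. Of 45 tested genes of the EGF receptor, Notch and Wnt pathways 29 were higher and 8 lower (median 1.70), and of the 31 measured on all 6 arrays 18 and 8 (1.24). The receptors themselves split. Egfr was at 6.06, 4.10 and 6.29 in the livers and at 2.68, 2.84 and 3.09 in the esophagi (-2.61 ± 0.47, adjusted p = 8.24e-04), and liver 2 was the lowest liver yet above every esophagus. Erbb2, its partner receptor, differed by 5.06 ± 0.32, and Erbb3, which lacks strong kinase activity, by -2.96 ± 0.30. Another tested probe of Erbb2 differed by 2.82, and the other tested probes of Erbb3 by -0.51, -3.08 and -3.67. The Notch receptor gene Notch3 differed by 4.52 ± 0.25 and the ligand gene Jag2 by 6.64 ± 1.14, with 1 of 3 livers above background. Wnt4 and Wnt10a, which encode ligands, differed by 6.81 ± 0.61 and 6.66 ± 0.53, each with 2 of 3 livers above background.

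In the growth hormone and IGF axis 14 of 25 tested genes were lower in esophagus and 5 higher (median -2.42). Igf1, the growth factor that the liver releases into blood, was at 5.92, 5.93 and 6.23 in the livers and at -0.33, -0.79 and -1.20 in the esophagi (-6.80 ± 0.27, 112-fold, adjusted p = 1.42e-08). Igf2 went the other way, at 1.51, 1.28 and 1.89 in the esophagi and -4.16, -3.49 and -3.80 in the livers (5.37 ± 0.26). Both were clearly separated. Igfals, which stabilizes circulating IGF, differed by -6.16 ± 0.25, Ghr, the growth hormone receptor, by -3.01 ± 0.32 and Igfbp5, a binding protein, by 8.44 ± 0.49 (2.24 for another tested probe). Igf1r, the receptor of both growth factors, was higher in esophagus by 2.70 ± 0.26. Of 23 tested Hox genes, which record position along the body axis, 14 were higher in esophagus and 3 lower (2.19), such as Hoxa5, at least 6.87-fold higher (means -2.21 and -7.00). Of the 8 Hox genes measured on all 6 arrays 3 were higher and 1 lower, with a median of 0.22.

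Of 40 tested mitosis genes 22 were higher in esophagus and 3 lower (median 1.09), and of 35 DNA replication genes 12 were higher and 4 lower (0.58), beside 26.8% higher and 33.4% lower over all tested genes. On all 6 arrays, 11 of 22 measured mitosis genes were higher and 3 lower (0.998), and 10 of 30 replication genes were higher and 4 lower (0.32). Prc1, which bundles the central spindle, was at 0.20, 0.53 and 0.08 in the esophagi and at -2.14, -1.90 and -2.40 in the livers (2.42 ± 0.28, adjusted p = 3.81e-05). All esophagi were above all livers. Cdc20, an activator of the anaphase ligase, differed by 2.38 ± 0.40. The lower mitosis genes were Cks2 (-2.15 ± 0.25), Spc25 (-2.13 ± 0.39) and Pttg1, which encodes securin (-0.72 ± 0.23, adjusted p = 0.0219). The call of Pttg1 was lost in 8 of 17 alternative fits. Among these were the fits without liver 2 (adjusted p = 0.077), without esophagus 3 (adjusted p = 0.0811) and after quantile normalization (-0.35, adjusted p = 0.223). Without esophagus 2, 7 replication genes were higher.

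Housekeeping lists moved with the scaling. Of 66 ribosomal protein genes 13 were higher in esophagus and 4 lower (median 0.17), but after quantile normalization 57 were higher and 1 lower (median 0.997). Without esophagus 2, 6 were higher and 5 lower. Of 67 oxidative phosphorylation genes 57 were lower and 3 higher (-0.83), but after quantile normalization 21 were lower and 9 higher (-0.17). The proteasome list went from 23 lower and 2 higher (-0.65) to 8 and 6 (-0.13). The median of all genes was -0.14 before and -0.04 after. Some members stood far outside their list. Rpl3l, a muscle form of a ribosomal protein, differed by 8.26 ± 0.36, with 2 of 3 livers above background, and Rps27l, a ribosomal-like protein, by -2.39 ± 0.23. Of 16 tested genes commonly used as references 9 were lower and 2 higher (-0.56), and 5 went each way after quantile normalization. B2m, the light chain of the class I molecules that present antigen, was at 3.80, 3.33 and 3.59 in the esophagi and at 7.25, 7.36 and 7.28 in the livers (-3.72 ± 0.34, adjusted p = 6.70e-06). Hprt, a purine salvage enzyme, differed by 0.21 ± 0.23 and was not called (adjusted p = 0.44), but it was called after quantile normalization (0.93, adjusted p = 0.00147). Of 20 tested clock genes 2 were higher and 1, the repressor gene Nfil3, lower at -2.98 ± 0.42 (median 0.14).

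**Figure D4:**
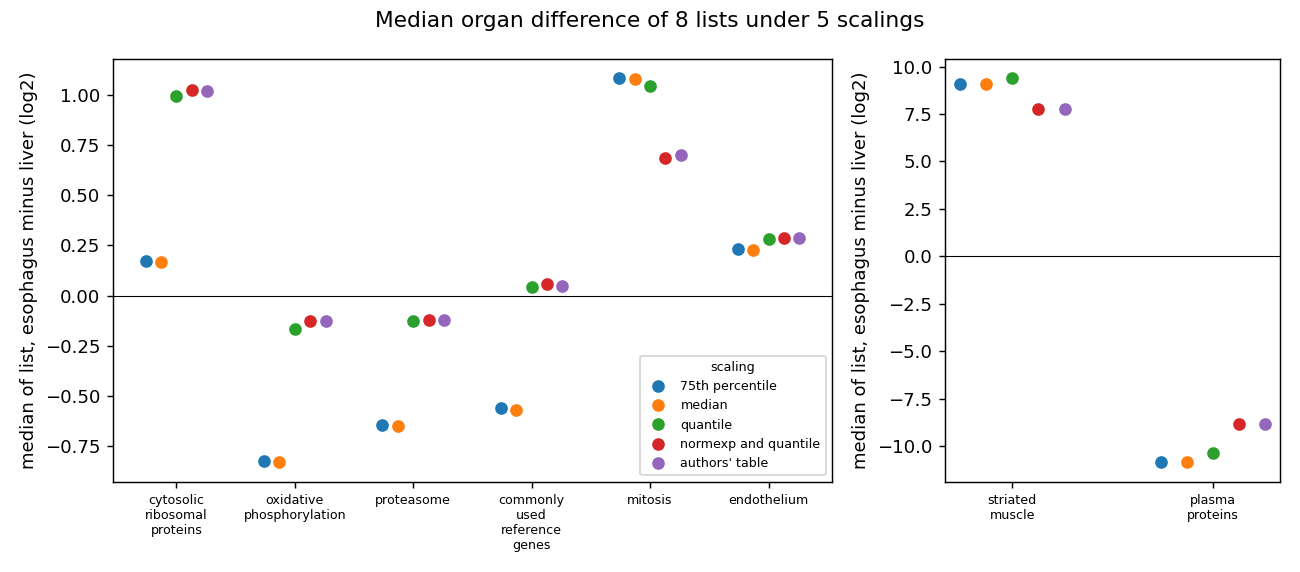
Median organ difference (esophagus minus liver, log2) of 8 lists under 5 scalings of the arrays, one point each. Striated muscle and plasma proteins keep their sign under all 5, while the ribosomal median runs from 0.17 to 1.03 and the reference gene median changes sign.

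The 3 control mice differed from each other for some genes far more than for most. The median range among mice was 0.475 over 14823 genes in esophagus and 0.575 over 14065 genes in liver. In esophagus, Sftpc, the surfactant protein C of the lung's alveoli, was at 2.20, -6.29 and 0.55 (above background in 2 of 3), and Chil3, a chitinase-like protein of macrophages, at 0.33, 2.37 and 6.20. Hal, which degrades histidine in liver and skin, was at -4.15, -4.79 and 1.75. Sftpc was highest in esophagus 1, and Chil3 and Hal were highest in esophagus 3. In liver, Lcn2, an acute phase protein, was at 4.31, -3.60 and -3.19, and Saa3, another, at 8.11, 1.22 and 4.95, both highest in liver 1. Cyp4a14, a fatty acid hydroxylase, was at -0.37, 7.30 and 3.75 and Cidea, a lipid droplet protein, at -3.09, 3.79 and -0.22, both lowest in liver 1. In the same liver Pklr, Gys2, Slc2a2 and Cyp7a1 were also the lowest of the 3 livers, with Slc2a2, the liver's glucose transporter, at 2.00, 3.36 and 3.63 and Cyp7a1 at 1.64, 3.86 and 3.997.

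**Figure D5:**
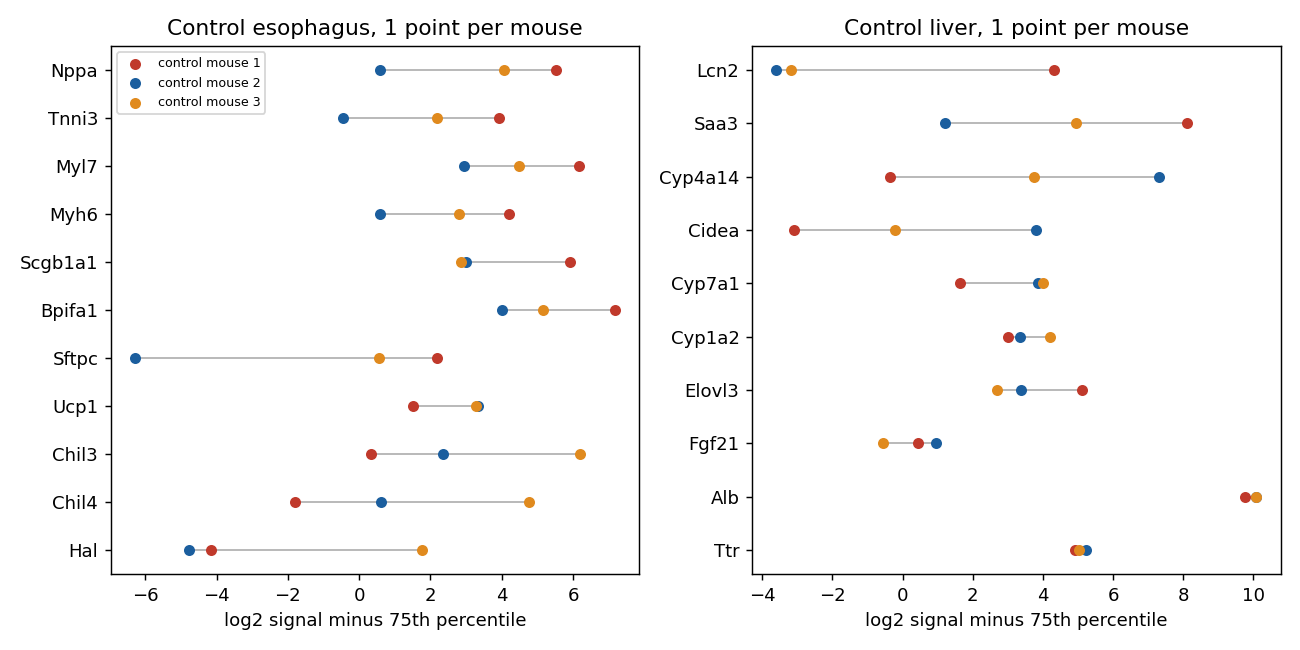
Level (log2 signal minus the 75th percentile) of 11 genes in the 3 control esophagi and 10 genes in the 3 control livers, with 1 point per mouse and a line over their range. Heart and airway genes such as Nppa (5.51, 0.58 and 4.07) are highest in mouse 1, and Lcn2 and Saa3 are highest in the liver of mouse 1.

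Whether the organ difference itself differed between control and TG mice was tested as an interaction. Of 23365 genes, 0 (0%) passed limma's adjusted p, 968 had an unadjusted p under 0.05, and the smallest adjusted p was 0.994. The genes with the smallest unadjusted p values for each sign of the interaction, control minus TG organ difference, are given as values that did not pass. It was positive for Cyp2c40, a P450 (2.14 ± 0.40), with organ differences of -12.65 in controls and -14.79 in TG mice, where the esophagi at -7.91, -8.16 and -7.54 were all below background (2 of 3 control esophagi were above). It was also positive for Nppa (6.71 ± 1.34, 6.24 against -0.47) and for Tnni3, the heart's troponin I (6.40 ± 1.30, 6.03 against -0.37, with 2 of 3 control livers above background). It was negative for Krtap3-2, a hair keratin-associated protein (-3.88 ± 0.64, 3.02 against 6.90, with no liver above background). For Mchr1, a neuropeptide receptor, the organ difference was -2.54 in controls and 1.35 in TG mice (-3.89 ± 0.68, with the spots of TG mouse 1 left out of both organs). For Sprr2f, a cornified envelope protein of a near-identical family, it was 0.91 in controls, with 1 of 3 livers above background, and 6.78 in TG mice (-5.87 ± 1.27).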

How the data were processed

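RNA (1 µg, RIN 7.3 to 9.5) was labelled with Cy3 and hybridised to Agilent 4x44K mouse arrays of design 014868, per the labels and file headers. The deposited scanner files hold intensity values from Feature Extraction 10.7.1.1, with background subtracted. The authors' deposited table holds log2 values with equal quantiles on all arrays and background treatment not given in the sources used here; the submitters' processing notes name limma. From the processed intensity, log2 minus each array's 75th percentile was taken, without 1311 outlier spots; 0 spots were saturated. Of 41174 probes 23374 were named through RefSeq, giving 16535 genes, and each gene took its brightest probe. Among 280 list genes with over 1 tested probe, 29 had a probe with a difference of the opposite sign. An unnamed probe counts as its own gene. A gene was tested when well above background on all 3 arrays of 1 group or more. limma 3.58.1 in R 4.3.3 fitted all 12 arrays in 4 groups with 8 residual degrees of freedom. The scripts were tested on simulated data. The normexp alternative used median spot signals (offset 50), since the mean signals planned were not among the columns used here.

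The labels give the same animal in both organs. Deviations of the 2 organs of a control animal correlated at -0.03, 0.07 and -0.04, and the animal was used as a block in an alternative. Each group is 3 animals. Alternatives were other scalings, background corrections, filters, blocks (animal, slide) and leaving out arrays. Members and gene lists were chosen with earlier results of these data known. Named genes were the 15 with the largest difference in each direction among genes above background on all 6 control arrays, up to 8 per list in its main direction and 6 in the other, any isozyme, reference gene or transcription factor, the 3 smallest interaction p-values per direction, and the 10 genes per organ that varied most among control mice. Outside this rule, Abcb11, Actg2, Adh1, Alb, Col3a1, Cyp3a11, Cyp7a1, Erbb2, Ghr, Krt13, Lce3f, Mybpc1, Mybpc3, Myh4, Notch3 and Scd1 were chosen after their values were seen. Some genes are not reported here by name.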

Additional observations from a re-analysis of the deposited data

Results flagged for a closer look

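The organ difference of Nppa, the atrial natriuretic peptide, was positive in all 3 control mice and negative in all 3 TG mice. It was 6.24 in controls and -0.47 in TG mice, a difference of 6.71 that limma did not call (adjusted p = 0.994). The esophagi were at 5.51, 0.58 and 4.07 in controls and at -3.19, -3.14 and -3.03 in TG mice.

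Mybpc3, the heart's myosin-binding protein C, showed the same pattern, at 4.24 in controls and -2.06 in TG mice. The difference was 6.29 and was not called either (adjusted p = 0.994). Its esophagi were at 3.58, -0.54 and 2.39 in controls and at -3.20, -4.49 and -3.59 in TG mice. The part of heart tissue in these values was not tested.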

How the results depend on the processing

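The count of 14060 genes differing between the control organs ran from 10768, over genes above background on all arrays of both groups, to 17202, with every probe on its own. The share of calls higher in esophagus was 44.6%, against 49.3% after quantile normalization and 35.3% over genes measured in both organs. Leaving out 1 array gave 12623 to 13593. With the animal as a replicate block 13167 genes were called; among the named genes the block ended the call of Cldn1 and added that of Lcn2 (-5.47, adjusted p = 0.0498) and changed no other call.

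For the interaction, 1 gene was called after quantile normalization, after normexp and in the authors' deposited table, Krtap3-2 each time (-3.93, -2.60 and -2.64). Leaving out 1 array gave 0 to 1: Nppa without control esophagus 2 (8.11, adjusted p = 0.00192) and Hal without control esophagus 3 (-5.39, adjusted p = 0.0471). The cause was not tested.

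Differences within a slide, which are counted here, carry no test and could only keep or turn their direction. Of 2865 values of 153 named genes under alternatives, 2815 kept their direction and side of the threshold. Another 43 values of 9 genes lost the call, 5 of 3 genes gained it and 2 turned. Both that turned were within slide 1 and of genes not called: Aldoc at 0.0386 and Hprt at -0.236. A further 42 values were not tested. List medians were taken over the members tested in the main fit, so the filter alternatives could not move them. The animal block and the fit on the compared arrays alone also returned the main medians. Over the 17 alternatives other than the within-slide values, the median kept its sign for 32 of 37 lists. The others were T cells, macrophages and Kupffer cells, red blood cells, clock and reference genes. Isozymes count among the 32, though their median over members measured on all 6 arrays was -0.46. Of these 32, DNA replication turned to -0.179 within slide 1 and ribosomal proteins to -0.0100 within slide 2. Liver 3, with the fewest probes above background, limits what could be measured as dim in liver.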
